A study of Mus musculus with 6 samples.

Results

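Endothelial genes were examined in whole mouse pancreas at stage e16.5, as 36 genes chosen by symbol: 26 general genes of blood vessel endothelium, 3 arterial, 2 venous and 5 lymphatic genes. All 36 were found among the 54735 gene symbols of each count table, and all 36 passed the filter on low counts that kept 19070 genes for testing. The study concerned retinoic acid signalling in endocrine progenitors and the islet cells they form. Its 3 control pancreata carried Neurog3:cre alone, and its 3 RARdn pancreata carried Neurog3:cre together with RARdnfl/fl, the floxed allele in homozygous form. The name RARdn usually stands for a retinoic acid receptor with dominant-negative action, a reading that the labels leave unstated. The cre driver was shared by both groups and is known for its activity in endocrine progenitors, not in endothelium, and both groups had a mixed C57Bl6/129SV background. Each library came from total RNA of a dissected pancreas, so endothelial transcripts were read in a mixture of all its cells, in which fewer cells of a type and less RNA per cell cannot be told apart. Whether any embryos were littermates is not stated, and p-values measure only the spread between these samples, which may be technical.

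Blood vessels of the pancreas form a dense capillary bed that runs beside the epithelium, and in development endothelial cells are a known source of signals to pancreatic progenitors. Vascular endothelial growth factor acts through the receptor tyrosine kinases encoded by Kdr and Flt1 on blood vessels, while Flt4 is the receptor best known for lymphatic growth. Endothelial cells are held together by VE-cadherin (Cdh5), PECAM-1 (Pecam1) and claudin-5 (Cldn5), and their identity is set by transcription factors of the ETS family (Erg, Fli1) and of the SOX family (Sox7, Sox17, Sox18). Arteries couple through the gap junction proteins connexin 37 (Gja4) and connexin 40 (Gja5), veins require the nuclear receptor COUP-TFII (Nr2f2), and lymphatic identity depends on the homeobox factor Prox1.

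Of the connexin genes, Gja4 passed the test described below and Gja5 did not, so the promoters of both are shown. They are RefSeq sequences on build GRCm38.p6 that run from 250 bases before to 50 bases after the annotated start, 5′ to 3′ on the gene's strand, and the RefSeq table held a promoter for 22 of the 36 genes. Capitals mark the ETS core GGAAG and the SOX-type sequences ACAAT and ACAAAG, each searched on both strands. Gja4 lies on the minus strand at chr4:127313990-127314289, and Gja5 on the plus strand at chr3:97032152-97032451.
Gja4: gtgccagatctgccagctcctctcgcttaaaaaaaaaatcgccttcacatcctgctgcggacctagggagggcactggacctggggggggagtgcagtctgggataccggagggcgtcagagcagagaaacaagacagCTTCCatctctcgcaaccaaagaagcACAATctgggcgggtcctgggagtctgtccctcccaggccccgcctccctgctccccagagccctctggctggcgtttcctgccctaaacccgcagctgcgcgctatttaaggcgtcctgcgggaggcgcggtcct
Gja5: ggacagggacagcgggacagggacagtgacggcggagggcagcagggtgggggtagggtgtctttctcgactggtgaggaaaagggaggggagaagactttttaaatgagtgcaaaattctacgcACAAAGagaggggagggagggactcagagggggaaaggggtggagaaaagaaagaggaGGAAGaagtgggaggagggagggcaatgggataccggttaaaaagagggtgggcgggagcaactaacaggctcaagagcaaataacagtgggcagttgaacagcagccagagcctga
Each window held 1 ETS core, a sequence found in 71.4% of all 32851 promoters in the table and in 77.8% of the 27 promoters of these genes. The Gja4 window held 1 ACAAT and the Gja5 window 1 ACAAAG, which stood in 31% and 18.7% of all promoters. The nuclear receptor half-site AGGTCA, present in 16.3% of all promoters, was in neither window.

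Counts in genes ran from 38572573 to 44735721 in the control libraries and from 35256531 to 52015498 in the RARdn libraries. The 36 genes took 0.135% to 0.171% of these counts in controls and 0.145% to 0.201% in RARdn libraries, and the smallest count behind any value was 53 (Esm1 in RARdn 3). Composition differed beside the genotype: 25 acinar genes took between 17.9% and 19.1% of each control library and 7.32%, 21.9% and 26.8% of RARdn 1, 2 and 3, and reads outside genes took 7.60% to 8.99% in controls and 2.90% to 5.30% in RARdn libraries. Alb, the albumin gene of liver, was at 1.18 to 2.92 CPM in controls, against 597, 137 and 3.19 CPM in RARdn 1, 2 and 3. Xist, made from the inactive X chromosome, reached 1158 CPM in control 1 and 1118 CPM in control 3, with 0.312 CPM in control 2 and no more than 0.230 CPM in any RARdn library, so the sexes were not balanced. The part of composition in the results was not tested beyond the values given below. With a term for Xist in the fit, none of the genes called below and named in the text kept its call, Gja4 and Ramp2 included, and over all genes 5 were called higher and 50 lower. Log2 fold changes in that fit were 0.86 for Gja4 and 0.79 for Ramp2, against 0.82 and 0.60 without the term. All RARdn libraries and, of the controls, only control 2 were low in Xist, so this fit leans on 1 control. The part of sex in the calls was not tested beyond it.

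The core genes Pecam1, Cdh5 and Kdr of blood vessel endothelium did not pass the test between the groups. Pecam1, an adhesion molecule of endothelial junctions (chromosome 11, 106654217 to 106750628, GRCm38), was at 148, 125 and 121 CPM (counts per 1e6 counts, scaled between libraries) in control 1, 2 and 3, against 125, 137 and 135 CPM in RARdn 1, 2 and 3. Cdh5, the endothelial cadherin (chromosome 8, 104101625 to 104144511), was at 176, 166 and 158 CPM in controls, against 160, 159 and 184 CPM in RARdn libraries. The groups overlapped for both genes. The log2 fold changes of RARdn over control were 0.0090 for Pecam1 (95% interval -0.25 to 0.27) and 0.0073 for Cdh5 (-0.25 to 0.27), with edgeR adjusted p = 0.972 and 0.978. Kdr, the main growth factor receptor of blood vessels (chromosome 5, 75932827 to 75978458), was at 102, 91.7 and 88.7 CPM in controls, against 84.9, 90.4 and 87.4 CPM in RARdn libraries (log2 -0.10, 95% interval -0.33 to 0.12, adjusted p = 0.568, edgeR). The 8 defining endothelial markers Pecam1, Cdh5, Kdr, Tie1, Tek, Emcn, Esam and Cldn5 were present in every library, and their summed level was 524 ± 51.1 CPM in controls (SD, n = 3) and 544 ± 18.9 CPM in RARdn libraries. The intervals of Pecam1, Cdh5 and Kdr all contained 0.

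**Figure D1:**
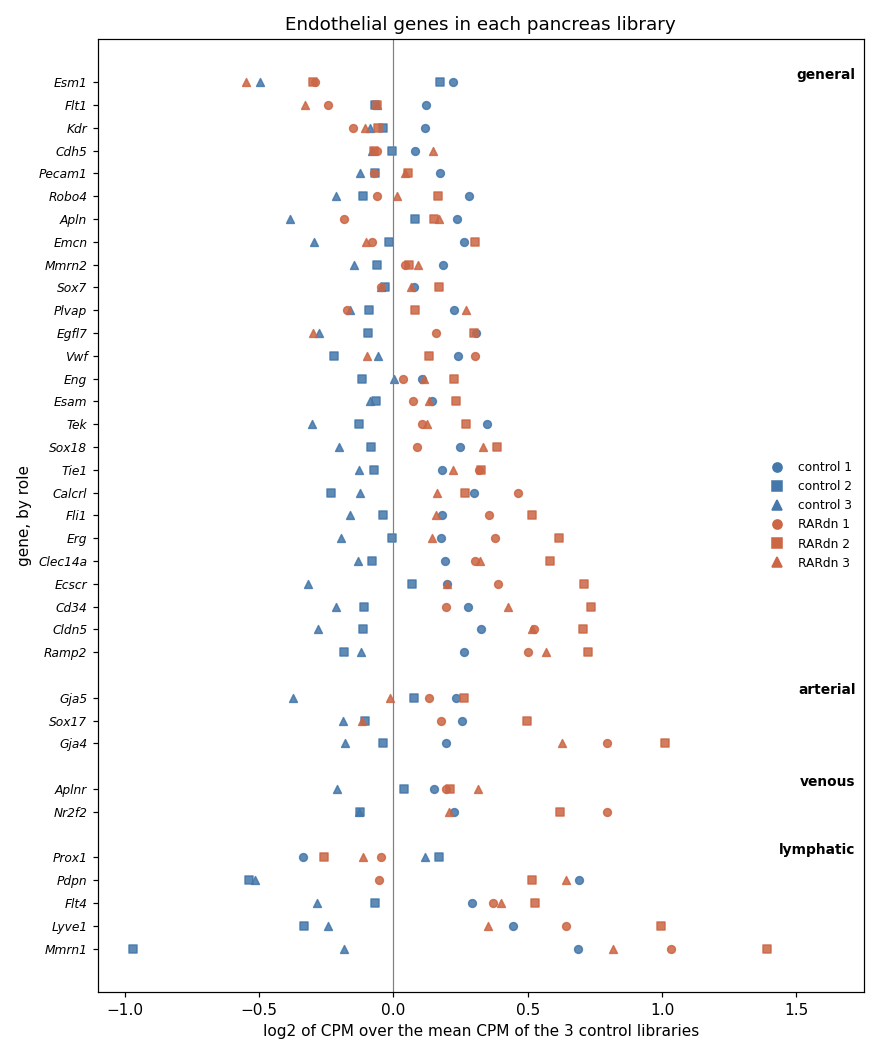
Level of each of the 36 endothelial genes in each library, as log2 of CPM (x axis) over the mean of the 3 control libraries, with genes on the y axis ordered by role and fold change. Points are libraries, blue for control and orange for RARdn. Control 1 lies to the right of both other controls for 35 of 36 genes, and the RARdn points lie clear of all controls for 8 genes.

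Of the 36 genes, 2 rose in RARdn pancreas and none fell (edgeR quasi-likelihood test, adjusted p under 0.05 over all 19070 genes). That is 5.56% of them, against 1.37% of all genes tested called higher, 2.65% called lower and 4.02% in either direction. The risen genes were Gja4, an arterial connexin, and Ramp2, a receptor partner of the adrenomedullin system. No gene of the venous or lymphatic role passed. At an unadjusted p under 0.05, 13 of 36 were higher (36.1%, against 12% of all genes) and none lower (10.2% of all genes), and DESeq2 called 6 higher (16.7%, against 5.1%) and none lower. The log2 fold change was above 0 for 32 of 36 genes, with a median of 0.19, against 50% and a median of 0.00051 over all genes tested. For 8 of 36 genes every RARdn library was above every control (22.2%, against 13.9% of all genes), and for none was every one below (13.7% of all genes). These genes share libraries and may share cells, so their counts are not independent of one another. The count of 2 became 4 without control 1, 3 without RARdn 3 and 0 without control 2, control 3 or RARdn 2. Without control 3 only 23 genes had a log2 fold change above 0, with a median of 0.13, and without control 1 the median was 0.34.

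**Figure D2:**
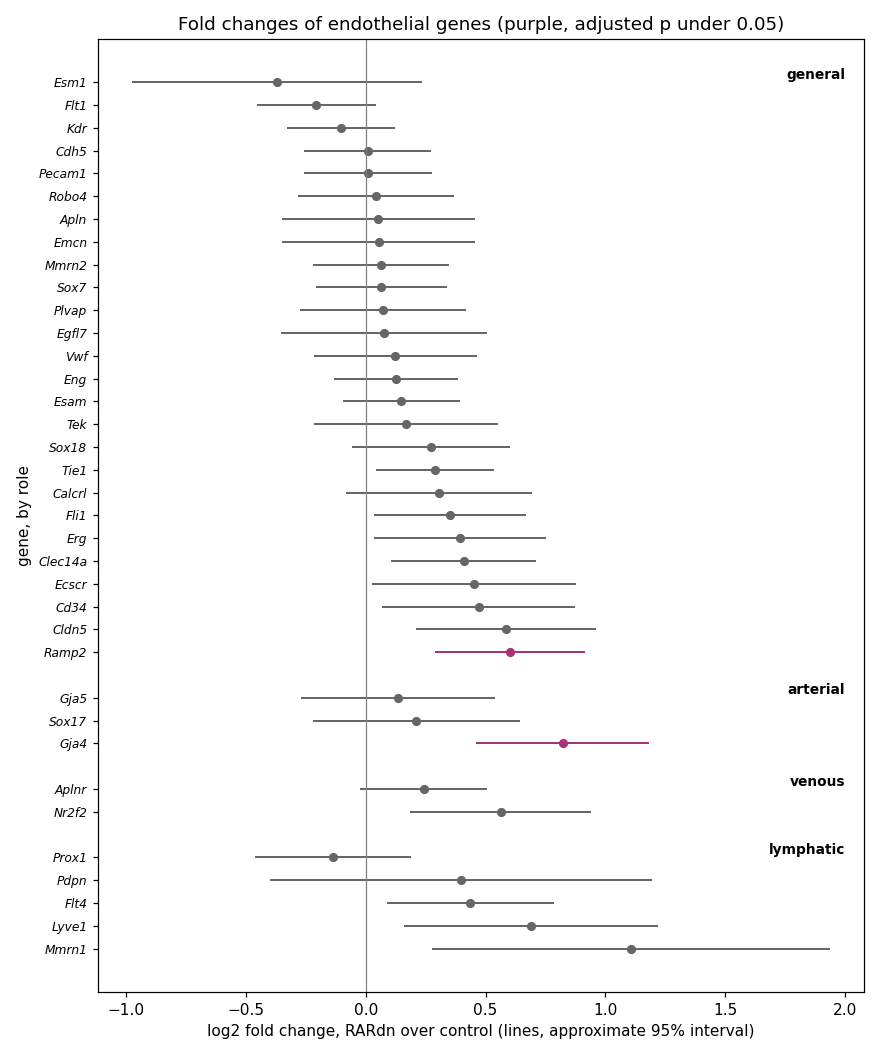
Log2 fold change of RARdn over control (x axis) for each of the 36 genes (y axis, by role), with approximate 95% intervals as lines. The 2 genes with an edgeR adjusted p under 0.05, Ramp2 and Gja4, are drawn in purple at 0.60 and 0.82.

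Among receptors and ligands of the general group, the angiopoietin receptor pair and the growth factor receptors lay on either side of no change. Tie1, an orphan receptor that pairs with the angiopoietin receptor Tek, was at 55.0, 46.1 and 44.3 CPM in control 1, 2 and 3, against 60.4, 60.7 and 56.4 CPM in RARdn 1, 2 and 3. Every RARdn library was above every control, but the difference did not pass (log2 0.29, SE 0.11, adjusted p = 0.161, edgeR). Tek itself was at 21.7 ± 5.25 and 24.4 ± 1.54 CPM with overlapping groups (log2 0.17, adjusted p = 0.595). Flt1, a growth factor receptor that can act as a decoy, averaged 47.6 ± 3.65 and 41.2 ± 3.99 CPM (log2 -0.21, 95% interval -0.45 to 0.04, adjusted p = 0.298). Eng, a co-receptor of the TGF-beta family, was at 149, 128 and 139 CPM in controls, against 142, 162 and 150 CPM in RARdn libraries (log2 0.13, adjusted p = 0.547), and these overlapped. Apln, the X-linked peptide ligand of the apelin receptor that growing vessels make, averaged 19.7 ± 4.16 and 20.4 ± 2.68 CPM (log2 0.05, adjusted p = 0.890). Esm1, a proteoglycan known from endothelial tip cells and the lowest-expressed of the 36, had the lowest log2 fold change of all at -0.37. It was at 2.98, 2.87 and 1.81 CPM in controls, against 2.09, 2.07 and 1.74 CPM in RARdn libraries (95% interval -0.97 to 0.23, adjusted p = 0.449), so the groups overlapped.

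The adrenomedullin receptor is built from the calcitonin receptor-like protein encoded by Calcrl and the accessory protein encoded by Ramp2, and it is known for its part in vessel integrity. Ramp2 (chromosome 11, 101246028 to 101259546) was at 34.6, 25.4 and 26.5 CPM in control 1, 2 and 3, against 40.8, 47.6 and 42.8 CPM in RARdn 1, 2 and 3. All RARdn libraries lay above all controls. The difference was 1.52-fold (log2 0.60, SE 0.14, adjusted p = 0.0480, edgeR), the largest log2 fold change of the general genes. The call was lost without control 2 (adjusted p = 0.197, edgeR), control 3 (0.169) or RARdn 2 (0.127), with a term for Xist (0.212) and with a replicate block (0.0555). Library totals only, or a filter of at least 1 CPM in 3 libraries, also ended it. Without RARdn 1 and 2 together the log2 fold change of Ramp2 was 0.59. Ramp2 was called in 8 of 16 alternatives, with adjusted p from 0.00556 to 0.212. Of the annotated exon bases of Ramp2, 33.4% overlap Vps25 on the same strand, and Vps25 itself was listed at 0.506 ± 0.0230 and 0.584 ± 0.136 CPM. Calcrl averaged 11.8 ± 2.40 CPM in controls against 14.5 ± 1.55 CPM in RARdn libraries (log2 0.31, 95% interval -0.08 to 0.69, adjusted p = 0.326), with overlapping groups. The ligand gene Adm was between 1.20 and 2.52 CPM in every library. The count ratio of Ramp2 to Calcrl was 2.46 ± 0.0723 in controls and 3.04 ± 0.460 in RARdn libraries, with overlap.

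Junction and surface genes of the general group held the next largest differences, none of which passed. Cldn5, the tight junction claudin of endothelium (chromosome 16, 18776847 to 18778262), was at 19.4, 14.3 and 12.7 CPM in control 1, 2 and 3, against 22.2, 25.2 and 22.2 CPM in RARdn 1, 2 and 3. The groups did not overlap, but the control range was wide (log2 0.59, SE 0.16, adjusted p = 0.0850, edgeR). Without control 1 Cldn5 was called (adjusted p = 0.0467), as it was by DESeq2 (0.0250), within a range of 0.0164 to 0.407 over 16 alternatives. Clec14a, a C-type lectin of vessel endothelium, was at 24.5, 20.2 and 19.5 CPM in controls, against 26.4, 32.0 and 26.7 CPM in RARdn libraries, again without overlap (log2 0.41, SE 0.13, adjusted p = 0.116). Cd34, a sialomucin that endothelium shares with some mesenchymal and blood-forming cells, was at 132, 101 and 94.1 CPM in controls, against 125, 182 and 147 CPM in RARdn libraries (log2 0.47, SE 0.18, adjusted p = 0.164), and RARdn 1 lay below control 1. Plvap, the diaphragm protein of fenestrated capillaries, was at 139, 112 and 107 CPM in controls, against 106, 126 and 144 CPM in RARdn libraries (log2 0.07, adjusted p = 0.824). Per kilobase of exon, Plvap had the highest level of the 36 genes in both groups (60.0 and 63.0 CPM per kb), followed by Cdh5 (39.6 and 39.9) and Eng (34.3 and 37.4).

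The 4 transcription factor genes of the general group, Erg, Fli1, Sox18 and Sox7, had positive log2 fold changes without passing the test. Erg averaged 14.9 ± 1.93 and 19.6 ± 3.20 CPM (log2 0.39, adjusted p = 0.183, edgeR) and Fli1 17.7 ± 2.16 and 22.6 ± 2.78 CPM (log2 0.35, adjusted p = 0.178). For both genes RARdn 3 lay below control 1. Sox18 averaged 24.7 ± 4.13 and 29.9 ± 3.19 CPM (log2 0.27, adjusted p = 0.302), and Sox7 14.2 ± 0.665 and 14.8 ± 1.12 CPM (log2 0.06, adjusted p = 0.793). The 9 remaining general genes, Emcn, Esam, Egfl7, Robo4, Ecscr, Vwf and Mmrn2 together with Tek and Calcrl above, had log2 fold changes from 0.04 (Robo4) to 0.45 (Ecscr), and their groups overlapped.

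**Figure D3:**
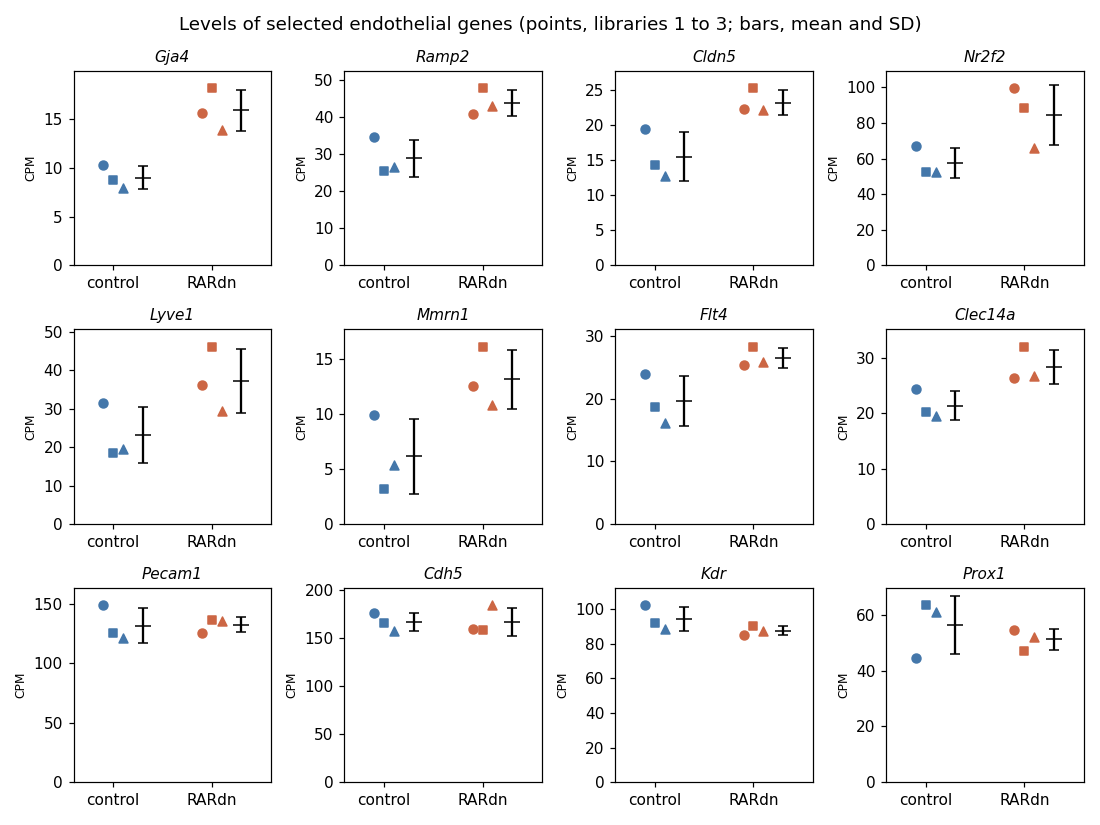
CPM (y axes, from 0) of 12 endothelial genes in control and RARdn libraries (x axes). Circles, squares and triangles are libraries 1, 2 and 3 of each group, and the bars beside them give the mean and SD of 3 libraries. Gja4 runs from 7.94 to 10.3 CPM in controls and from 13.9 to 18.2 CPM in RARdn libraries, while Pecam1, Cdh5, Kdr and Prox1 overlap.

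Of the 3 arterial genes 1 rose, against 1.37% of all genes tested. Gja4, encoding connexin 37 (chromosome 4, 127311421 to 127314039), was at 10.3, 8.75 and 7.94 CPM in control 1, 2 and 3, against 15.6, 18.2 and 13.9 CPM in RARdn 1, 2 and 3. Every RARdn library was above every control, and the difference was 1.77-fold (log2 0.82, SE 0.16, adjusted p = 0.0279, edgeR). The call was lost without control 2 (adjusted p = 0.126, edgeR), control 3 (0.103) or RARdn 2 (0.0867), and with a term for Xist (0.298). Library totals only, or a filter of at least 1 CPM in 3 libraries, also ended it. Gja4 was called in 9 of 16 alternatives, with adjusted p from 0.000221 to 0.298. Gja5, encoding connexin 40 (chromosome 3, 96904693 to 97077416), was at 12.6, 11.3 and 8.26 CPM in controls, against 11.8, 12.9 and 10.6 CPM in RARdn libraries. These overlapped (log2 0.13, 95% interval -0.27 to 0.54, adjusted p = 0.701). There were 0.851 ± 0.0972 Gja4 counts per Gja5 count in controls and 1.35 ± 0.0551 in RARdn libraries, and the groups did not overlap in this ratio, which was chosen after the values were seen. Per count of the smooth muscle actin gene Acta2, there were 0.212 ± 0.0376 Gja4 counts in controls and 0.167 ± 0.0283 in RARdn libraries, with overlap. This ratio depends on the choice of Acta2, which was itself called higher (log2 1.17). Pdgfrb, another gene of the mural cell list below, had a log2 fold change of 0.19 (adjusted p = 0.383, edgeR), and no ratio to it was taken. Sox17, a transcription factor that arteries require and that also acts in early endoderm, was at 14.5, 11.3 and 10.7 CPM in controls, against 13.7, 17.1 and 11.2 CPM in RARdn libraries. It did not pass (log2 0.21, 95% interval -0.22 to 0.64, adjusted p = 0.552), and 16.9% of its exon bases overlap Gm37587 on the other strand.

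Both venous genes were higher on average without passing. Nr2f2, the nuclear receptor gene of vein identity that pancreatic mesenchyme also expresses (chromosome 7, 70351944 to 70366735), was at 67.0, 52.5 and 52.5 CPM in control 1, 2 and 3, against 99.4, 88.2 and 66.2 CPM in RARdn 1, 2 and 3. RARdn 3 lay just below control 1 (log2 0.56, SE 0.16, adjusted p = 0.0937, edgeR). It was called without RARdn 3 (log2 0.72, adjusted p = 0.0169) and by DESeq2 (0.0290), within a range of 0.0155 to 0.425 over 16 alternatives. Without RARdn 1 and 2 together the log2 fold change of Nr2f2 was 0.23, its lowest over these alternatives. Relative to mesenchyme, there were 1.11 ± 0.0372 Nr2f2 counts per count of the mesenchymal receptor gene Pdgfra in controls and 1.13 ± 0.107 in RARdn libraries, with overlap. Aplnr, the apelin receptor of veins and sprouting vessels (chromosome 2, 85136225 to 85139923), was at 87.2, 80.7 and 68.0 CPM in controls, against 90.1, 91.0 and 97.8 CPM in RARdn libraries. Its groups did not overlap, by a margin smaller than the control spread (log2 0.24, SE 0.11, adjusted p = 0.255).

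Of the 5 lymphatic genes none passed in edgeR. At an unadjusted p under 0.05 there were 3, all higher, against 12% of all genes higher. DESeq2 called 2 higher, against 5.1% of all genes. Mmrn1, a secreted protein of lymphatic endothelium and platelets (chromosome 6, 60924976 to 60989378), was at 9.92, 3.14 and 5.42 CPM in control 1, 2 and 3, against 12.6, 16.1 and 10.9 CPM in RARdn 1, 2 and 3. Its log2 fold change of 1.11 was the largest of the 36, with the groups apart but the controls spread more than 3-fold (SE 0.36, adjusted p = 0.124, edgeR). It was called without control 1 (log2 1.63, adjusted p = 0.0459) and by DESeq2 (0.0209), within a range of 0.0102 to 0.336 over 16 alternatives. Lyve1, a hyaluronan receptor of lymphatic endothelium that some macrophages and liver sinusoids also carry (chromosome 7, 110850607 to 110863239), was at 31.5, 18.4 and 19.5 CPM in controls, against 36.1, 46.1 and 29.5 CPM in RARdn libraries. RARdn 3 lay below control 1 (log2 0.69, SE 0.23, adjusted p = 0.129, edgeR), and DESeq2 called the gene (0.0454; range 0.0146 to 0.452 over 16 alternatives).

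Flt4, the lymphatic growth factor receptor (chromosome 11, 49609263 to 49652739), was at 24.0, 18.7 and 16.1 CPM in control 1, 2 and 3, against 25.3, 28.2 and 25.9 CPM in RARdn 1, 2 and 3. The groups were apart by a narrow margin (log2 0.44, SE 0.15, adjusted p = 0.140, edgeR). Pdpn, a mucin-like protein of lymphatic endothelium that mesothelium and mesenchyme also make (chromosome 4, 143267431 to 143299564), was at 9.19, 3.92 and 3.98 CPM in controls, against 5.49, 8.15 and 8.89 CPM in RARdn libraries, with control 1 above all others (log2 0.40, 95% interval -0.39 to 1.19, adjusted p = 0.544). Prox1, the master regulator of lymphatic identity that pancreatic epithelium also expresses (chromosome 1, 190118035 to 190170714), was at 44.5, 63.3 and 61.0 CPM in controls, against 54.5, 47.0 and 52.0 CPM in RARdn libraries. It was the one gene of the 36 for which control 1 was not the highest control (log2 -0.14, 95% interval -0.46 to 0.19, adjusted p = 0.617). The summed level of the lymphatic genes without Prox1 was 74.6, 44.1 and 45.0 CPM in controls, against 79.5, 98.6 and 75.1 CPM in RARdn libraries, where control 1 came close to RARdn 1 and 3.

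Shares within the endothelial genes were taken to set each gene against the rest. For each library, counts were divided by the summed counts of the 26 general genes, which contain the general numerators themselves. Kdr made up 7.62% ± 0.331 of that sum in controls and 6.42% ± 0.205 in RARdn libraries, and Flt1 3.85% ± 0.178 and 3.02% ± 0.202. Both shares were below every control in 3 of 3 RARdn libraries, as was that of Pecam1 (10.6% ± 0.0745 and 9.70% ± 0.289). Flt4, relative to the same sum, was at 1.57% ± 0.140 and 1.94% ± 0.0362, higher in every RARdn library. There were 0.207 ± 0.0268 Flt4 counts per Kdr count in controls and 0.302 ± 0.00887 in RARdn libraries, a ratio chosen after the values were seen. Gja4 stood at 0.725% ± 0.0218 and 1.16% ± 0.124 of the sum, Ramp2 at 2.32% ± 0.153 and 3.20% ± 0.0671 and Cldn5 at 1.24% ± 0.127 and 1.70% ± 0.0621, and none of these overlapped. Gja5 (0.861% ± 0.118 and 0.861% ± 0.0712) and Esam (2.35% ± 0.0689 and 2.36% ± 0.0256) took nearly equal mean shares. The shares are descriptions without a test, and shares of one sum are not independent of each other.

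**Figure D4:**
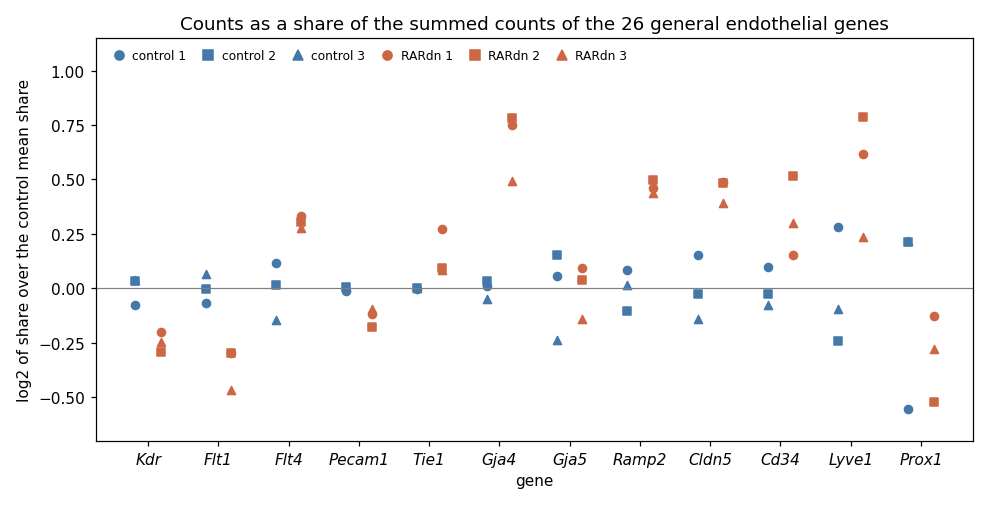
Counts of 12 genes as a share of the summed counts of the 26 general genes in the same library, as log2 over the control mean share (y axis), by gene (x axis). Blue points are control and orange points RARdn libraries. Kdr, Flt1 and Pecam1 lie below all controls in the 3 RARdn libraries, and Flt4, Tie1, Gja4, Ramp2, Cldn5 and Cd34 lie above.

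Other genes of vascular biology gave a background from 58 further genes, of which 56 were tested. Of these, 4 rose and none fell (edgeR), against 1.37% and 2.65% of all genes, and their median log2 fold change was 0.42. By list, 1 of 22 signalling genes, 2 of 9 arterial genes, 0 of 4 venous genes, 1 of 6 lymphatic genes and 1 of 19 identity genes rose, with Cxcl12 standing in 2 lists. Efnb2, the ephrin ligand of arteries, was at 23.7, 22.7 and 24.9 CPM in the controls and at 34.1, 37.2 and 31.4 CPM in the 3 RARdn libraries (log2 0.53, SE 0.10, adjusted p = 0.0320). Its venous receptor Ephb4 averaged 122 ± 3.77 and 141 ± 12.5 CPM (log2 0.20, adjusted p = 0.305). Cxcl12, a chemokine that arteries and stroma make, was at 135, 127 and 111 CPM in controls, against 234, 223 and 169 CPM in RARdn libraries (log2 0.75, SE 0.15, adjusted p = 0.0342). Itga9, an integrin of lymphatic valves, averaged 12.9 ± 1.19 and 20.6 ± 3.13 CPM (log2 0.68, SE 0.14, adjusted p = 0.0406), and Hhex, a homeobox gene of endothelium, liver and delta cells, was the fourth (log2 0.86, adjusted p = 0.0160).

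Among the genes of these lists that did not pass, Plxnd1, a semaphorin receptor, averaged 309 ± 13.9 and 338 ± 29.8 CPM (log2 0.13, adjusted p = 0.599, edgeR), Cd93 92.0 ± 4.74 and 91.6 ± 8.68 CPM (log2 -0.0071, adjusted p = 0.976), Nrp2 67.2 and 76.0 CPM (log2 0.18, adjusted p = 0.516) and Gja1 42.7 ± 0.999 and 53.6 ± 3.41 CPM (log2 0.33, adjusted p = 0.0819). Gja1 was called without RARdn 3 (0.0441). Leaving out any control, or RARdn 2, ended the calls of Efnb2, Cxcl12 and Itga9, with adjusted p between 0.0669 (Itga9 without control 1) and 0.163 (Efnb2 without control 2). Hhex was not called without control 1, 2 or 3 (0.0532, 0.0597 and 0.0557). With a term for Xist the adjusted p was 0.284 for Efnb2, 0.386 for Cxcl12, 0.350 for Itga9 and 0.247 for Hhex, and without RARdn 1 and 2 together it was 0.105, 0.0770, 0.130 and 0.0303. DESeq2 called 13 of the 56 genes higher and none lower, against 5.1% of all genes in each direction. The count of 4 became 0 without any 1 control, 1 without RARdn 2 and 12 without RARdn 3.

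Some markers of neighbouring cell types rose in the same libraries, where edgeR called 1.37% of all genes tested higher. Of 12 mural cell genes 2 rose (edgeR): Rgs5, a pericyte gene, from 46.2 ± 17.4 to 100.5 ± 5.22 CPM (log2 1.12, adjusted p = 0.0335) and Acta2, the smooth muscle actin, from a mean of 43.9 to 98.9 CPM, the latter with an SD of 30.8 (log2 1.17, adjusted p = 0.0431). The summed mural list ran from 444 to 561 CPM in controls and from 575 to 757 CPM in RARdn libraries. Of its control mean of 483 CPM, Rgs5 and Acta2 gave 46.2 and 43.9 CPM. Of its RARdn mean of 679 CPM they gave 100.5 and 98.9 CPM. Groups were apart, with RARdn higher, for 5 of the 12 mural genes, against 13.9% of all genes. They overlapped for Pdgfrb (log2 0.19), Cspg4 (0.04), Kcnj8 (0.33), Abcc9 (0.20), Mcam, Higd1b and Tagln. All 12 log2 fold changes were above 0. Of 12 mesenchyme genes 1 rose, Lum, a matrix proteoglycan (52.1 ± 8.41 and 110 ± 16.1 CPM, log2 1.07, adjusted p = 0.0128), while the collagen gene Col3a1 averaged 2115 ± 304 and 3166 ± 262 CPM (log2 0.58, adjusted p = 0.145). The mesenchyme sum ran from 4599 to 6336 CPM and from 7804 to 8853 CPM. Of its control mean of 5411 CPM, Col1a1, Col1a2 and Col3a1 gave 1735, 1199 and 2115 CPM. Of its RARdn mean of 8282 CPM they gave 2567, 1930 and 3166 CPM. Groups were apart, with RARdn higher, for 6 of the 12 genes, against 13.9% of all genes. They overlapped for Tcf21, Nkx3-2, Barx1, Twist1, Prrx1 and Meox1, of which Barx1 (log2 -0.52) and Nkx3-2 (log2 -0.13) were lower on average. The calls of Rgs5 and Acta2 were lost without control 2, control 3 or RARdn 2 (adjusted p from 0.0955 to 0.163), and that of Lum without control 2 (0.0587). With a term for Xist none of these 3 was called (0.156 for Rgs5, 0.207 for Acta2 and 0.103 for Lum), and without RARdn 1 and 2 together Rgs5 (0.0877) and Acta2 (0.135) were not. DESeq2 called 3 of the 12 mural genes and 6 of the 12 mesenchyme genes higher, against 5.1% of all genes. Col3a1 was among them (adjusted p = 0.0025, DESeq2).

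Of 12 macrophage genes, listed because macrophages can carry Lyve1, 2 rose: Csf1r (30.7 ± 6.30 and 53.9 ± 11.1 CPM, log2 0.81, adjusted p = 0.0454, edgeR) and Cx3cr1 (13.9 ± 1.86 and 23.1 ± 3.75 CPM, log2 0.73, adjusted p = 0.0401). Over all genes tested, 1.37% were called higher by edgeR and 5.1% by DESeq2, and 12% were higher at an unadjusted p under 0.05 (edgeR). Lyve1 counts per Csf1r count were 0.743 ± 0.0780 in controls and 0.691 ± 0.0710 in RARdn libraries, which overlapped. This ratio depends on the choice of Csf1r, which was itself called higher. Mrc1, another gene of the macrophage list, averaged 39.2 ± 7.74 and 48.7 ± 11.1 CPM (log2 0.31, adjusted p = 0.359, edgeR), and no ratio to it was taken. The macrophage sum, of which C1qa made up 258 CPM in the control mean and 211 CPM in the RARdn mean, ran from 357 to 502 CPM and from 321 to 520 CPM, and no macrophage marker was at 0 in any library. C1qa was at 317, 225 and 232 CPM in control 1, 2 and 3, against 110, 191 and 333 CPM in RARdn 1, 2 and 3. Of the 12 genes, 10 had a log2 fold change above 0, with a list median of 0.65. Groups were apart, with RARdn higher, for 5 of the 12, against 13.9% of all genes. Csf1r lost its call without control 2, control 3 or RARdn 2 and Cx3cr1 without those or control 1 (0.0558 to 0.180). Neither was called with a term for Xist (0.247 and 0.230) or without RARdn 1 and 2 together (0.0985 and 0.0947), and DESeq2 called 6 of the 12 macrophage genes higher. Of 5 tested genes of liver sinusoidal endothelium none passed in edgeR, with 2 at an unadjusted p under 0.05 and 2 called by DESeq2, and the summed list of 6 ran from 85.6 to 124 CPM in controls and from 136 to 176 CPM in RARdn libraries. Of the list means of 102 and 151 CPM, Stab1, also a macrophage gene, gave 96.0 ± 17.0 and 142 ± 21.8 CPM (log2 0.57, adjusted p = 0.0869, edgeR). Oit3 averaged 2.46 ± 1.43 and 2.87 ± 0.518 CPM (adjusted p = 0.789, edgeR). Stab1 was called without RARdn 3 (0.0354) and by DESeq2 (0.0197; range 0.0191 to 0.312 over 16 alternatives). With RARdn 1 and 2, the libraries highest in Alb, left out together, an alternative chosen after seeing the data, the log2 fold change of Lyve1 was 0.37 (adjusted p = 0.452) and that of Gja4 0.64 (adjusted p = 0.101).

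Of 5 tested megakaryocyte and platelet genes, listed because platelets also hold Mmrn1 and Vwf, none passed in edgeR, with 1 at an unadjusted p under 0.05 and none called by DESeq2. At that unadjusted threshold, 12% of all genes tested were higher and 10.2% lower. Their sum ran from 11.2 to 16.8 CPM in controls and from 12.7 to 18.9 CPM in RARdn libraries, with Pf4 at 6.78 ± 1.87 and 10.5 ± 2.65 CPM (adjusted p = 0.169) and Itga2b at 4.81 ± 1.16 and 4.16 ± 0.735 CPM (adjusted p = 0.663). Summed mesothelium genes (159 to 246 and 154 to 261 CPM), erythroid genes (3872 to 5456 and 3147 to 5515 CPM), endocrine genes (3176 to 3595 and 2617 to 3395 CPM) and adipocyte genes (40.8 to 50.6 and 27.6 to 52.4 CPM) overlapped between the groups. The part of these cell types in the endothelial values was not tested.

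**Figure D5:**
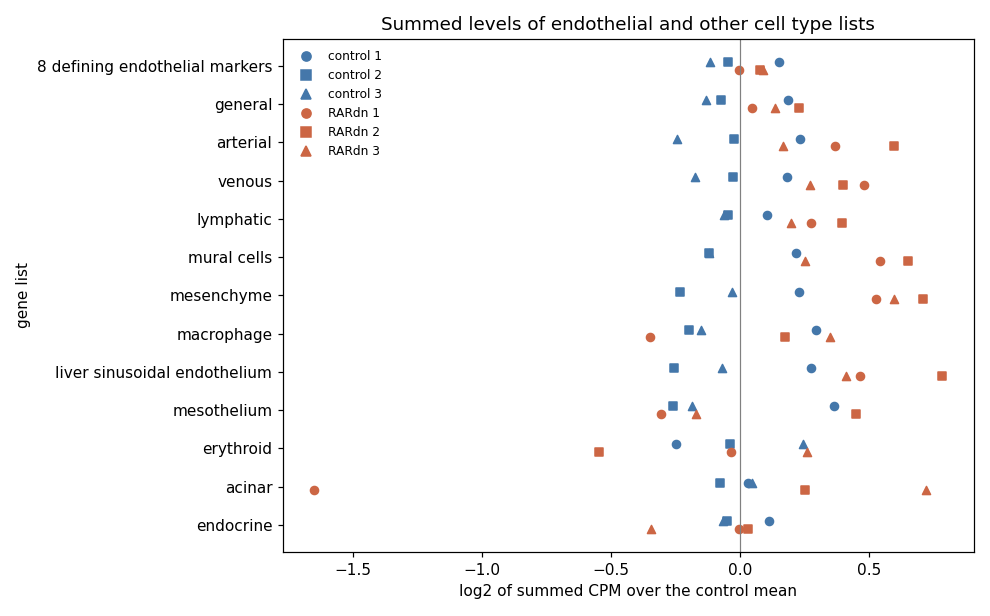
Summed CPM of endothelial and other cell type lists in each library, as log2 over the control mean (x axis), by list (y axis). Blue points are control and orange points RARdn libraries. The 8 defining endothelial markers overlap between groups, whereas the mural, mesenchyme, liver sinusoidal, venous and lymphatic sums of the RARdn libraries lie above all controls. Most of the mesenchyme sum comes from collagen genes, and most of the liver sinusoidal sum from Stab1, also a macrophage gene.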

How the data were processed

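RNA sequencing of 6 whole pancreata was read from count tables, 1 per sample. The authors deposited raw counts by gene symbol in HTSeq's layout; its 5 summary lines were left out. The tools named in the submitters' processing notes are HISAT2, HTSeq, cutadapt, bedtools, FastQC and DESeq2, and the builds mm10 and GRCm38. For versions, annotation and strand setting the sources used here give nothing, so reads of overlapping genes are uncertain.

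Low genes were removed with filterByExpr (edgeR 4.0.16, R 4.3.3), libraries were scaled by TMM, and groups were compared by the 2-sided quasi-likelihood test with genotype as the only term and Benjamini-Hochberg adjustment over 19070 genes. Levels are CPM after TMM scaling, as mean ± SD of 3 libraries. SE is the absolute log2 fold change over the root of F, and intervals are approximate. Positions and exon lengths came from GENCODE release M21. Alternatives used DESeq2 1.42.0, limma 3.58.1 (limma-voom), other filters, scalings and terms, and left out libraries. Within each group, no pair of libraries looked like one library deposited again (chi-square over degrees of freedom at least 13.8). Pairs across the groups were not checked in this way. The test was tested on simulated data. Genes, lists, roles and the rule for naming genes (every member, and from other lists up to 4 called genes filled to 2 with the most abundant) were chosen with earlier results of these data known. From the acinar, endocrine, erythroid, mesothelium and adipocyte lists only sums are given, and of the liver list only Alb. C1qa and further mesenchyme and mural genes are named outside the rule to show what fills a sum. Mrc1 and Pdgfrb are named to set another gene of the same list beside the one used in a ratio.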

Additional observations from a re-analysis of the deposited data

How the results depend on the processing

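Under the alternatives, 523 values for single endothelial genes kept their direction and side of the threshold, 15 lost and 12 gained a call, and 26 turned direction, none of these called; for the other named genes the counts were 241, 67, 5 and 7. The cause was not tested. The number of endothelial genes called higher (2) was 0 with library totals, 0 with at least 1 CPM in 3 libraries, 0 with a term for Xist, 0 without RARdn 1 and 2 together (chosen after seeing the data), 6 without a filter, 6 by DESeq2 and 0 to 4 when leaving out 1 library. General genes (1) gave 0, 0, 0, 0, 2, 2 and 0 to 2 in that order, and arterial genes (1) 0, 0, 0 and 0 for the first 4 and 0 to 1. Venous genes (0) gave 1 without a filter, 1 by DESeq2 and 0 to 1, and lymphatic genes (0) 2, 2 and 0 to 1. Other vascular genes (4) gave 1, 1, 0, 1, 12, 13 and 0 to 12 higher, and 0 to 1 lower. All genes gave 125, 77 and 5 higher with totals, 1 CPM and Xist, 1123 without a filter, 973 by DESeq2 and 22 to 1404; lower, they gave 140 with 1 CPM, 50 with Xist, 1223 without a filter, 973 by DESeq2 and 71 to 1576.

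Log2 fold changes that turned when leaving out 1 library ran from -0.045 to 0.11 (Pecam1), -0.061 to 0.071 (Cdh5), -0.085 to 0.20 (Emcn), -0.046 to 0.26 (Egfl7), -0.050 to 0.21 (Robo4), -0.034 to 0.21 (Plvap), -0.10 to 0.19 (Apln), -2.74e-05 to 0.17 (Mmrn2), -0.019 to 0.27 (Gja5), -0.057 to 0.096 (Cd93) and -0.11 to 0.76 (Oit3). With 1 CPM, Pecam1 was at -0.0055 and Cdh5 at -0.0074, and with Xist Apln was at -0.026. Without RARdn 1 and 2, Emcn was at -0.083, Egfl7 at -0.28, Vwf at -0.079, Sox17 at -0.099 and Cd93 at 0.12. Cd93 was at 0.017 with totals, 0.022 without a filter and 0.0078 without acinar genes.

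Deviations of same-numbered libraries from their group means correlated at 0.025, -0.060 and 0.17. The other pairs of a control and a RARdn library ran from -0.154 to 0.167, and not every library correlated best with its own number. With 3 libraries a group, such values cannot show whether the numbers pair the libraries. With a replicate block 2 endothelial genes were called, Gja4 and Nr2f2, of which 1 was shared; the block gave 0 general and 1 venous gene, and 321 higher and 496 lower of all genes. The effect of depth was not tested.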

Other observations

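Among the controls 1 library was the highest for nearly every endothelial gene. Control 1 was the highest control for 35 of 36 genes, against 39.9% of all genes tested, and control 3 was the lowest for 27. Among RARdn libraries RARdn 2 was the highest for 25 of 36 genes, against 32.6% of all genes tested, while the lowest was RARdn 1 for 17 genes and RARdn 3 for 17. The median coefficient of variation of the 36 genes was 16.8% in controls and 10.2% in RARdn libraries, where over all genes tested it was 10.4% and 17.5%. The controls thus varied more than the RARdn libraries for these genes while the reverse held for all genes. These orders are descriptions of 3 libraries a group and were noticed after the values were seen.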
